A study of Mus musculus with 8 samples.

Results

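Interferon-stimulated genes are described here in detached mouse retinas, as a set of 34 named genes read from a table of 56465 features. For each symbol the row with the highest mean over the 8 libraries was taken, and each of the 34 had 1 row. Of these, 33 had a mean of at least 10 normalized reads and entered the test across 19798 features, and the other, Mx1, is given as values. The samples were 4 retinas of wild-type mice (WT, replicates 3, 4, 5 and 7) and 4 of mice expressing human transferrin (TG, replicates 2, 5, 6 and 8), and the study asked, by its title, about transferrin in the detached retina. Transferrin is the iron carrier of blood plasma. Every mouse carries the strain label C57Bl/6J, and every retina was detached with 10 µl of sodium hyaluronate placed under it and collected 4 days later, so the controls were detached as well. WT 3, WT 4, WT 5, TG 2 and TG 5 came from males and WT 7, TG 6 and TG 8 from females. The mice's age and the transgene's promoter and cell type are not given in these sources. Whether every retina is of a different mouse is not stated, so the tests measure the spread between these samples.

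Interferons are secreted proteins that cells release when they sense foreign or misplaced nucleic acid, or, for interferon gamma, that T and NK cells release. Type I interferons (alpha and beta) signal through Ifnar1 and Ifnar2 to the kinases Jak1 and Tyk2, and the resulting complex, which holds Stat2 and Irf9, binds a promoter element called the ISRE. Interferon gamma signals through Ifngr1 and Ifngr2 to Jak1 and Jak2, and the factor they activate binds an element called GAS. In the retina, microglia and Mueller glia are known to respond to both. The genes these elements switch on block viral entry, translation and replication, and load immunity-related GTPases onto vacuoles that hold parasites.

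RefSeq promoters (GRCm38.p6, 250 bases before to 50 after the gene start) were matched to 25 of the 34 genes. The core of the ISRE was searched as GAAANNGAAA and its reverse complement TTTCNNTTTC, and GAS as TTCNNNGAA, which is its own reverse complement. The ISRE core was found in 16 of the 25 genes (64.0%), against 3.99% of all 27025 genes with a promoter of that length. GAS was found in 11 (44.0%), against 9.55% of all genes, and 7 genes held both. Matches of the 2 motifs overlapped each other in Bst2 and Ifitm3. All 6 immunity-related and guanylate-binding GTPase genes with a promoter held the ISRE core, while among the 4 transcription factor genes Stat2 was the 1 that did. A match is a description of letters and not a measured binding site. The stretches below are those before the gene start of the members on which the expression results turn, written 5′ to 3′ on the gene's strand, with the motif letters in capitals.

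Igtp: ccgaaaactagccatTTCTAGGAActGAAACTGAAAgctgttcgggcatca
Irgm2: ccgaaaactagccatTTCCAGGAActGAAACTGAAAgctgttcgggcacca
Irgm1: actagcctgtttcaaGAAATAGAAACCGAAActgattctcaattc
Isg15: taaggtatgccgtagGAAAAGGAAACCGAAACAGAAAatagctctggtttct
Oas1a: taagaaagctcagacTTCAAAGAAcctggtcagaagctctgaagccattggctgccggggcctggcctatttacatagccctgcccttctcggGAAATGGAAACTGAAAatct
Ifit1: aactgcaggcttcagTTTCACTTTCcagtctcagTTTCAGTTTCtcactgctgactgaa
Ifit3: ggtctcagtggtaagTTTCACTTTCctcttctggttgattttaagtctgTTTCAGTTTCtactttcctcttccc
Gbp2: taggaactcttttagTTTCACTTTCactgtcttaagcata
Gbp7: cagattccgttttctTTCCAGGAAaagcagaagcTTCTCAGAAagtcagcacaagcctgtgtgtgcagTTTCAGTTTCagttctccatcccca
Irf1: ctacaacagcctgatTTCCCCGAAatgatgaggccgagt

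On GRCm38.p6 the plus-strand stretches lie at chr11:58199496-58199546 (Igtp), chr11:58214887-58214937 (Irgm2), chr19:34640770-34640828 (Ifit1), chr19:34583358-34583431 (Ifit3), chr3:142620589-142620628 (Gbp2), chr3:142530215-142530307 (Gbp7) and chr11:53769909-53769947 (Irf1). The minus-strand ones lie at chr11:48871421-48871465 (Irgm1), chr4:156200860-156200911 (Isg15) and chr5:120907526-120907638 (Oas1a). The Irgm1 stretch lies before the RefSeq start but inside the span the authors give for the gene, which ends at 48871686. Igtp and Irgm2, neighbours on chromosome 11, differ at 2 of the 51 bases shown, and both carry a GAS followed by an ISRE core. In Isg15 3 overlapping ISRE cores run into one another. The Irf1 stretch carries GAS and no ISRE core.

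**Figure D1:**
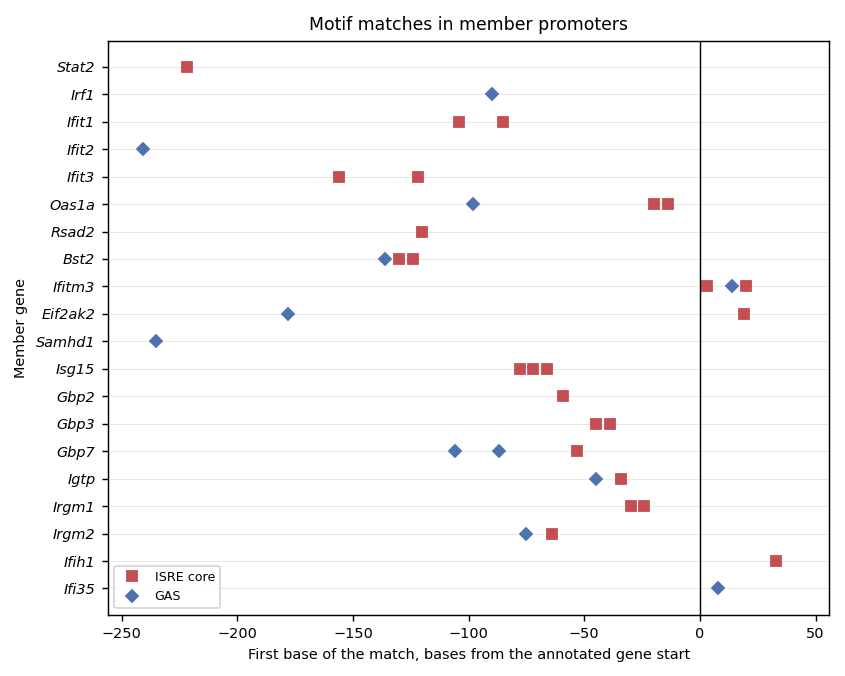
Positions of ISRE core (squares) and GAS (diamonds) matches in the promoters of the members that hold at least 1, as the distance in bases of the first base of the match from the annotated gene start. The matches of Igtp, Irgm1 and Irgm2 lie in the last 100 bases before the start, those of Eif2ak2 (ISRE core), Ifih1 and Ifitm3 after it.

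The libraries held 61535690 to 75866423 counted reads. Photoreceptor markers summed to between 2948246 and 4440571 normalized reads per library, so the tissue label and the reads matched. WT 3 stood apart before any interferon-stimulated gene was considered. The sum of 6 pigment epithelium markers was 97048 in WT 3, while WT 4, WT 5 and WT 7 had 3926 to 8735 and TG had 6592 to 42908. For 6 lens markers WT 3 had 24077, and WT 4, WT 5 and WT 7 had 33.8 to 712. TG 6 had 19825 and TG 5 had 5075 of lens markers. The part of these tissues in the values below was not tested, and results are given with and without WT 3.

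None of the 33 tested interferon-stimulated genes passed the test of TG against WT. Most of them lay higher in TG: 28 of the 33 tested had a positive log2 fold change, where 47.8% of all 19798 features did, and their median was 0.37 against -0.02 for all features. An adjusted p under 0.05 was reached by 0 of the 33 with limma, with edgeR and with DESeq2. Over all features it was reached by 1 higher (0.00505%) and 1 lower (0.00505%) with limma, by 2 either way with edgeR (0.0101%) and by 16 with DESeq2 (0.0808%). The smallest adjusted p of a member was 0.918 (limma). At an unadjusted p under 0.05 there were 3 members with each of the 3 tools, against 4.64%, 4.12% and 5.34% of all features with limma, edgeR and DESeq2. With limma these were Igtp, Irgm1 and Irgm2, all higher in TG, a direction in which 2.02% of all features had such a p, and 0 members were lower, against 2.62%. With edgeR and with DESeq2 Usp18 took the place of Irgm2. For 1 member, Igtp, every TG library lay above every WT library, as for 1.36% of all features. Log2 fold changes, on the log2(normalized reads + 1) scale, ran from -0.31 (Gbp7) to 1.50 (Oas2), with standard errors of 0.17 to 0.94 and a median of 0.35. In whole retina, more cells of a responding type and more RNA per cell cannot be told apart.

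**Figure D2:**
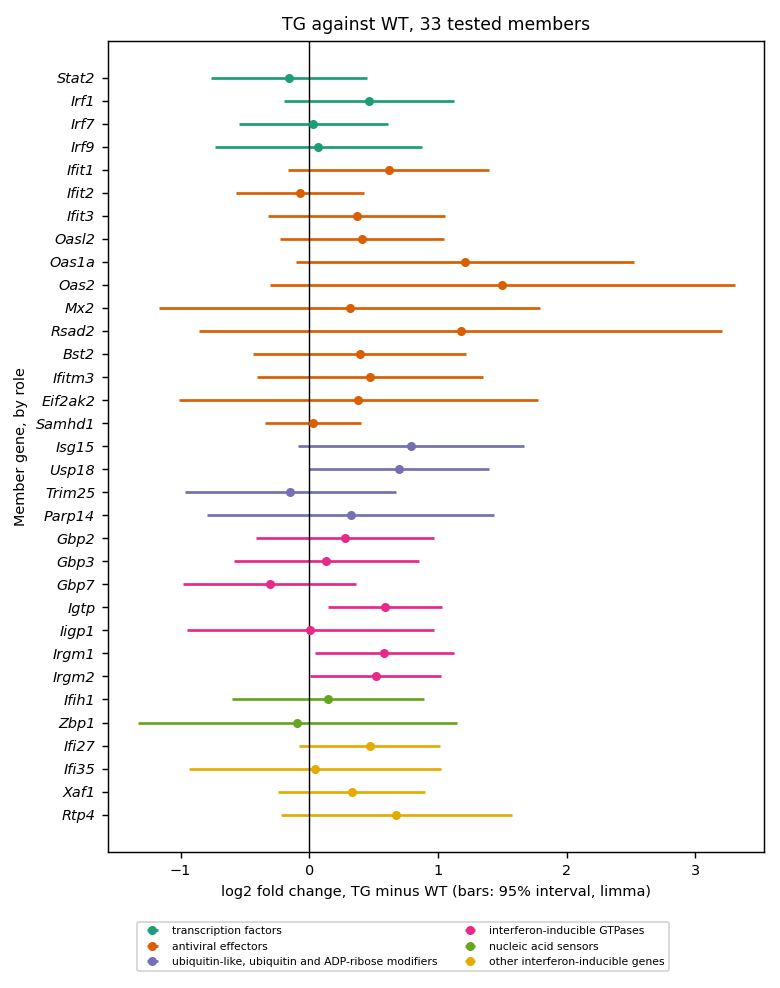
Log2 fold change of each of the 33 tested members, TG minus WT, with its 95% interval from limma, coloured by role. The intervals of Igtp, Irgm1 and Irgm2 lie above 0, the other 30 include 0, and 0 of the 33 passed after adjustment over all features.

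The spread between libraries of 1 genotype was wider than the difference between genotypes, and the members moved together in it. Taking each member's distance from its own mean over the 8 libraries, the median over the 33 genes was 0.50 in WT 3, -0.33 in WT 4, -0.48 in WT 5 and -0.28 in WT 7 on the log2 scale. In TG it was 0.18 in TG 2, 0.79 in TG 5, 0.03 in TG 6 and -0.41 in TG 8. The means of these medians were -0.15 in WT and 0.15 in TG, with SDs of 0.44 and 0.50. Over all features these medians ran from 0.01 to 0.04. WT 3 thus lay above 3 TG libraries, and TG 8 below WT 4 and WT 7. TG 5 had the highest of the 8 values for 19 of the 33 genes, where it did for 9.65% of all features, and WT 3 for 11, where it did for 12.9%. Within WT, WT 3 was highest for 25 of 33 (24.3% of all features). Within TG, TG 5 was highest for 30 (22.3%) and TG 8 lowest for 29 (25.3%).

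**Figure D3:**
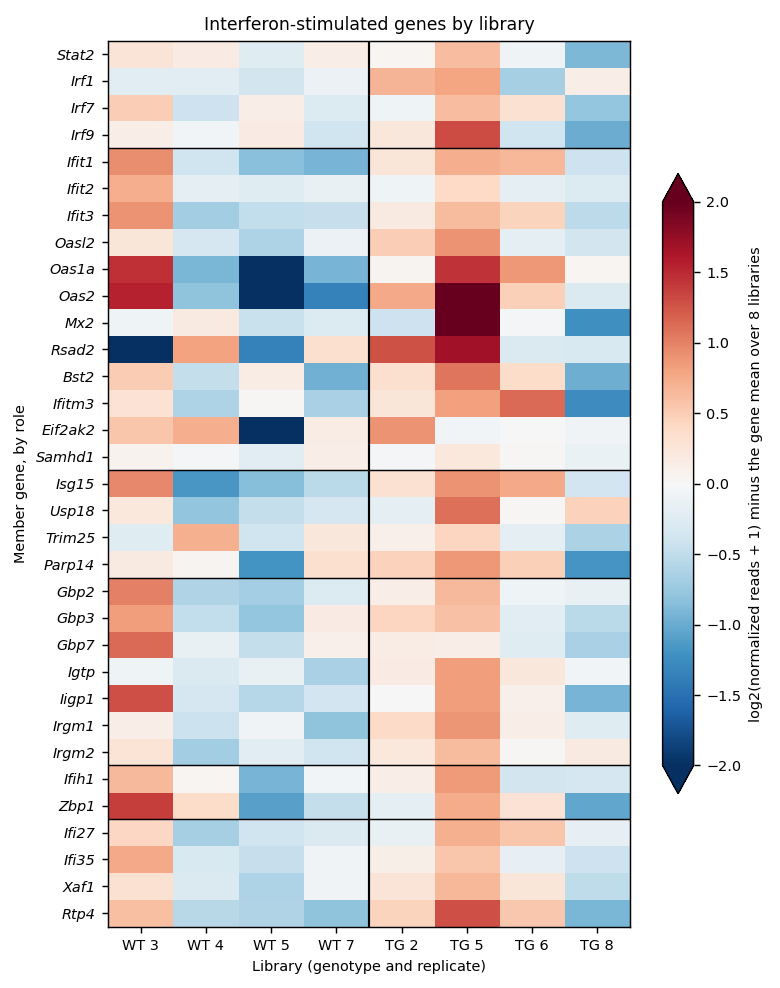
Each tested member (rows, by role) in each library (columns), as log2(normalized reads + 1) minus the gene's mean over the 8 libraries, with colours limited to 2 either way. The columns of WT 3 and TG 5 are mostly above the mean (28 and 32 of 33 genes) and those of WT 5 and TG 8 mostly below it (4 genes above in each).

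Leaving out single libraries moved the members' median log2 fold change both up and down. Without WT 3 it was 0.56, with 31 of 33 higher in TG, where 48.9% of all features were. In that fit 12 members had an unadjusted p under 0.05, as did 3.97% of all features. Every TG library then lay above the 3 remaining WT libraries for 8 genes (Oas1a, Oas2, Isg15, Usp18, Gbp2, Igtp, Irgm2 and Ifi27), as for 2.64% of all features. This count was made after the values of WT 3 were seen. Without TG 5 the median was 0.16, with 20 higher and 0 at an unadjusted p under 0.05, against 5.36% of all features. Without WT 5 it was 0.21, with 21 higher. Without TG 8 it was 0.55, with 32 higher, and without both WT 3 and TG 5 it was 0.32, with 27 higher. With sex as a term the median was 0.47, and with males only 0.64, with 32 higher. In none of these fits did a member pass over all features.

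Markers of microglia and macrophages, the resident and infiltrating phagocytes of the retina, were ordered in part like the members over the libraries. Their 17 genes summed to 33467, 24195, 23847 and 23829 normalized reads in WT 3, 4, 5 and 7. In TG 2, 5, 6 and 8 they summed to 33587, 54250, 34999 and 22864. WT 3 was again the highest WT library and TG 5 the highest of all. The order differed in that WT 3 lay below TG 2 and TG 6 here, but above them for the members' median. TG 8 was the lowest of all here, and WT 5 was for the members' median. Of the 17 markers 16 had a positive log2 fold change (median 0.37, range -0.41 to 0.87), and 0 passed. An unadjusted p under 0.05 was reached by 4, 4 and 5 with limma, edgeR and DESeq2, against 4.64%, 4.12% and 5.34% of all features. For 1 marker every TG library lay above every WT library, as for 1.36% of all features. Among T and NK cell markers, Cd3e and Ncr1 were at 0 in every library, and the 10 measured markers summed to 69.6 to 107 in WT and 37.2 to 134 in TG. Neutrophil and monocyte markers summed to 2141 in WT 4 and to 66.3 to 594 in the other 7 libraries. Plasmacytoid dendritic cell markers ran from 684 to 1028 in WT and from 583 to 1124 in TG. Mueller glia markers summed to 106205 to 189800 in WT and 160036 to 248429 in TG. Of these 6 markers 5 had a positive log2 fold change and 1 a negative one (median 0.36), and 0 passed. With limma 1 had an unadjusted p under 0.05, against 4.64% of all features. For 1 every TG library lay above every WT library, as for 1.36% of all features. Endothelial markers summed to 3218 to 7212 in WT and 2786 to 4819 in TG, with 0 of 6 higher (median -0.22). Red blood cell markers summed to 2635 to 39043 and 14470 to 27131. The part of any of these cells in the members' values was not tested.

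**Figure D4:**
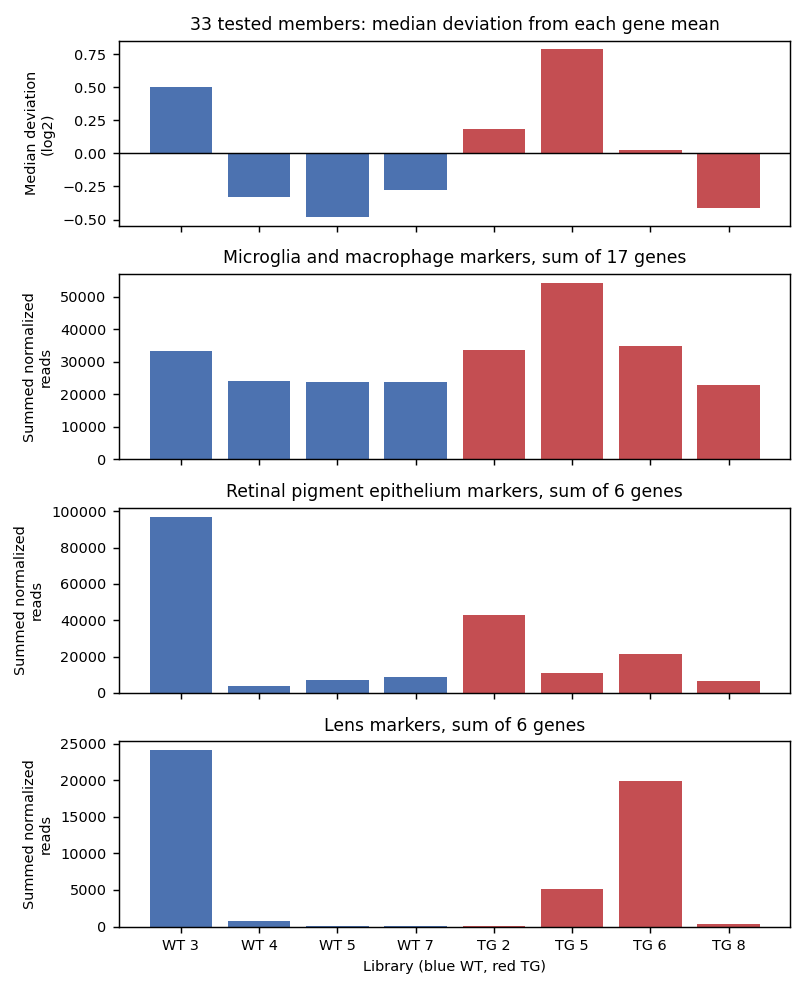
For each library (blue WT, red TG), the median over 33 members of the distance from each gene's mean (top, log2), and the summed normalized reads of 17 microglia and macrophage, 6 pigment epithelium and 6 lens markers. TG 5 is highest and TG 8 lowest for microglia and macrophage markers, while pigment epithelium markers are highest in WT 3 (97048) and TG 2 (42908).

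The ligands of the pathway were nearly absent from these messenger RNA libraries. Of 12 interferon genes, Ifna1, Ifna2, Ifna4, Ifna5, Ifna11, Ifnb1, Ifne, Ifnk, Ifng, Ifnl2 and Ifnl3 had 0 reads in all 8 libraries, which at 3 reads allows up to 2.64 to 3.71 normalized reads per library, for counting error only. Ifnz, a type I interferon relative, had 10.6 in WT 5, 3.9 in WT 7, 3.55 in TG 2 and 0 in the others.

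Receptors and kinases were present in every library, apart from the lambda receptor chain Ifnlr1, which ran from 0 to 49.3 normalized reads. Ifnar1 and Ifnar2, the type I receptor chains, had log2 fold changes of -0.11 ± 0.26 and 0.33 ± 0.17 (SE). Those of Ifngr1 and Ifngr2, the gamma receptor chains, were -0.12 ± 0.21 and -0.21 ± 0.18, of Ifnlr1 0.63 ± 1.41 and of Il10rb, the chain that lambda receptors share with interleukin 10, 0.32 ± 0.34. Jak2 had 1623, 1631, 1251 and 1785 normalized reads in WT 3, 4, 5 and 7 and 1320, 1304, 1099 and 1104 in TG 2, 5, 6 and 8. WT 5 lay within the TG values, and the log2 fold change of -0.38 ± 0.16 had an adjusted p of 0.918 (limma). Jak1 stood at -0.08 ± 0.20, Tyk2 at 0.19 ± 0.31 and Stat3 at -0.37 ± 0.33. Of the 6 receptor genes 0 passed in either direction, and Jak1, Jak2, Tyk2 and Stat3 did not pass either.

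Of 15 genes for the sensors and adaptors that induce interferon, 13 were tested, 9 lay higher and 4 lower, and 0 passed. Tlr7, an endosomal receptor for single-stranded RNA, had 88.0, 88.4, 55.0 and 69.2 normalized reads in WT and 117, 220, 172 and 105 in TG, so the groups did not overlap, as for 1.36% of all features in that direction (log2 fold change 0.98 ± 0.36, SE; adjusted p = 0.918, limma). Irf5, a factor activated downstream of it, stood at 0.82 ± 0.38 (SE) on the log2 scale and Ticam1, the adaptor of Tlr3, at 0.37 ± 0.25. Tlr3, the endosomal receptor for double-stranded RNA, went the other way, with 267, 178, 269.5 and 223 in WT and 161, 163, 149 and 177 in TG (-0.51 ± 0.25, SE; adjusted p = 0.918, limma). Every TG library was below every WT library for Tlr3, as for 1.16% of all features. Of 6 feedback inhibitors, 4 lay higher and 2 lower, and 0 passed. The 4 with the smallest p were Pias1 (-0.17 ± 0.17), Ptpn1 (-0.16 ± 0.25), Ptpn6 (0.19 ± 0.37) and Socs3 (0.20 ± 0.43).

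Among the 4 transcription factors, 3 lay higher and 1 lower, with a median log2 fold change of 0.05, and 0 passed. Irf7, which amplifies type I interferon production, was the most abundant of them per length and had 4381, 2325, 3398 and 2557 normalized reads in WT and 2924, 4769, 3812 and 1821 in TG. Its groups overlapped over most of their range (log2 fold change 0.03 ± 0.27, SE). The span of Irf7 overlaps that of Phrf1, which has a mean of 2154 normalized reads, so the level of Irf7 carries that uncertainty. Irf9, the DNA-binding partner of Stat2, had 859, 757, 881 and 594 in WT and 918, 1927, 597 and 392 in TG, so TG 5 was above every WT library and TG 8 below every one. Stat2 followed the same order within TG (505, 753, 469 and 262, against 415 to 587 in WT). Irf1, the factor whose promoter carries GAS, had 233, 235, 210 and 252 in WT and 438, 472, 172 and 298 in TG. For Irf1 3 of the 4 TG libraries were above all WT libraries and TG 6 was below them, and WT 3 lay among the other WT libraries. The difference on the log2 scale was 0.46 ± 0.31 (SE), 0.28 without TG 5 and 0.76 without TG 6.

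Interferon-inducible GTPases, which act on membranes of vacuoles and pathogens, held the 3 members with an unadjusted p under 0.05 with limma. They held 2 such members with edgeR and 2 with DESeq2. Of all features 4.64%, 4.12% and 5.34% had such a p with limma, edgeR and DESeq2. Of the 7 GTPase genes 6 lay higher in TG, as did 47.8% of all features. Igtp (Irgm3) had 1116, 966, 1062 and 749 normalized reads in WT 3, 4, 5 and 7 and 1323, 2097, 1382 and 1133 in TG 2, 5, 6 and 8. The lowest TG library, TG 8, was just above the highest WT library, WT 3. Its means were 973 ± 162 and 1483 ± 422 (SD, n = 4 each), a log2 fold change of 0.58 ± 0.21 (SE; 95% interval 0.14 to 1.03; adjusted p = 0.918, limma). Leaving out any 1 library gave 0.41 to 0.70. Irgm1, a regulator of the other GTPases and of autophagy, had 1284, 874, 1117 and 671 in WT and 1530, 2164, 1289 and 989 in TG. TG 8 lay within the WT range, and the log2 fold change was 0.58 ± 0.25 (SE; 95% interval 0.04 to 1.12; 0.38 without TG 5). Irgm2, the neighbour of Igtp, had 570, 292, 405 and 359 in WT and 543, 732, 479 and 534 in TG. WT 3 lay above TG 2, TG 6 and TG 8, and the log2 fold change was 0.52 ± 0.24 (SE; 95% interval 0.01 to 1.03; 0.37 to 0.69 without 1 library). All 3 had an adjusted p of 0.918 (limma). Igtp and Irgm2 are alike in sequence: 11.8% of the 50-base words of Igtp transcripts occur in Irgm2, so their reads carry that uncertainty.

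The guanylate-binding proteins differed from these 3 in how WT 3 stood. Gbp2 had 2207 normalized reads in WT 3 against 725, 689 and 910 in the other WT libraries, and 1209, 1729, 1042 and 994 in TG. Gbp7 had 1254 in WT 3 against 516, 409 and 613, and 632, 625, 482 and 363 in TG. Gbp3 had 1459 in WT 3 and 482 to 923 in the others, with 567 to 1232 in TG. The WT 3 value was 2.85, 2.45 and 2.20 times the mean of the other WT libraries for Gbp2, Gbp7 and Gbp3. It was 1.21, 1.45 and 1.62 times for Igtp, Irgm1 and Irgm2. The log2 fold changes were 0.28 ± 0.32, -0.31 ± 0.31 and 0.13 ± 0.33 (SE) for Gbp2, Gbp7 and Gbp3. That of Gbp2 was 0.66 without WT 3, 0.098 without WT 5, 0.11 without TG 5 and 0.12 without WT 4. Without WT 3 that of Gbp7 was 0.020, of the other sign, and that of Gbp3 was 0.43. Iigp1, a GTPase that coats parasite vacuoles, had 475 in WT 3 and 130 to 153 in the other WT libraries, and 194, 348, 207 and 101 in TG (0.0058 ± 0.45, SE).

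**Figure D5:**
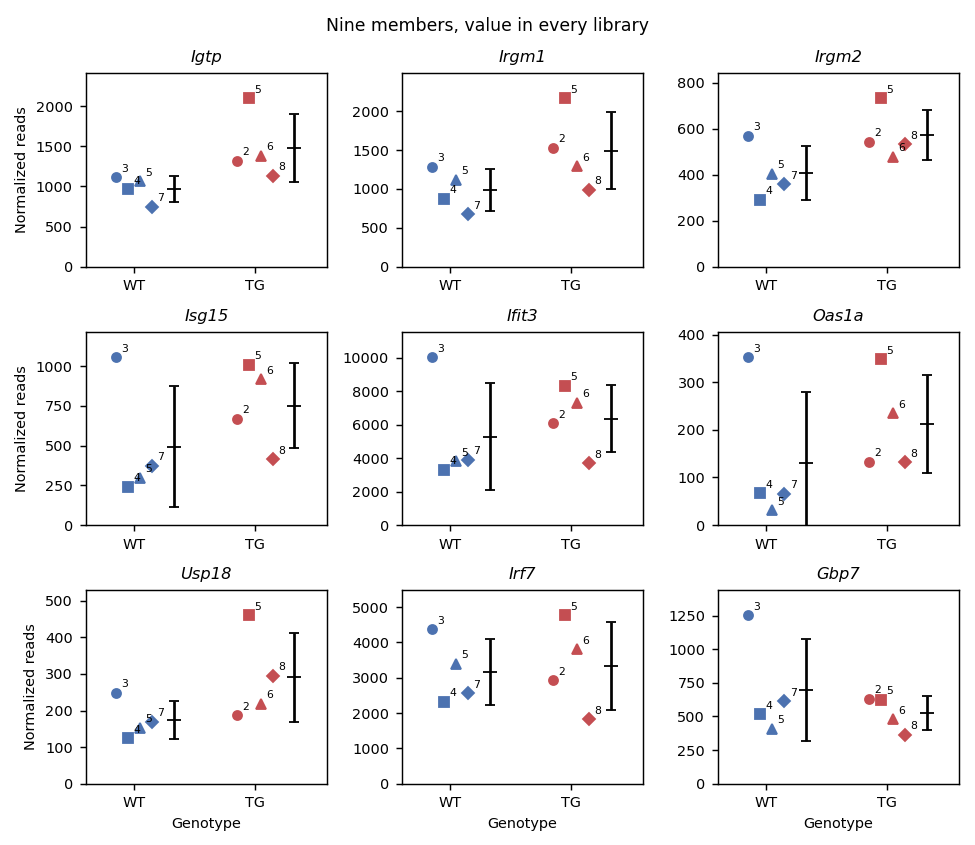
Normalized reads of 9 members in every library, numbered by replicate, with the mean and SD of each group (black, n = 4; the lower bar of Oas1a in WT runs below 0 and is not drawn there). The 4 TG libraries lie above the 4 WT libraries for Igtp, while WT 3 is the highest library for Isg15, Ifit3, Oas1a and Gbp7.

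Of 13 antiviral effectors, 12 were tested, 11 lay higher and 1 lower in TG, with a median log2 fold change of 0.40, and 0 passed. The Ifit genes, whose proteins bind foreign RNA ends and hold back translation, were highest in WT 3. Ifit3 had 10045 normalized reads in WT 3 against 3305, 3829 and 3899 in the other WT libraries, and 6085, 8332, 7312 and 3709 in TG. Ifit1 had 2401 in WT 3 against 948, 706 and 660, and 1486, 2084, 1999 and 945 in TG. Ifit2 had 1689 in WT 3 against 867 to 921, and 851 to 1345 in TG. For Ifit1 the log2 fold change was 0.62 ± 0.36 (SE) with all libraries, 1.03 without WT 3 and 0.41 without WT 7. For Ifit3 it was 0.37 ± 0.32, 0.73 without WT 3, 0.61 without TG 8, 0.20 without WT 4 and 0.22 without TG 5. For Ifit2 it was -0.07 ± 0.23, with 0.16 without WT 3 and -0.21 without TG 5. Ifit3 shares 51.2% of its 50-base words with its near-copy Ifit3b, so reads of the pair may be split between them. Ifit3b, named for that reason, had 2644, 888, 1040 and 1268 in WT and 2191, 2099, 1946 and 1321 in TG, the same libraries being high.

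The 2'-5'-oligoadenylate synthetases, which activate RNase L when they meet double-stranded RNA, held the 2 highest log2 fold changes of the tested members with limma, though not with edgeR or DESeq2, where Rsad2 was highest. Oas2 had 78.8, 14.7, 4.23 and 9.75 normalized reads in WT and 45.2, 113, 37.0 and 21.5 in TG (log2 fold change 1.50 ± 0.84, SE; 95% interval -0.31 to 3.30). Oas1a had 353, 67.2, 30.6 and 66.3 in WT and 133, 348, 235 and 132 in TG (1.21 ± 0.61, SE; 95% interval -0.11 to 2.52). For both genes every TG library was above WT 4, WT 5 and WT 7 and WT 3 was above 3 or 4 of the TG libraries. Their log2 fold changes were 2.26 and 1.90 without WT 3 and 0.95 and 0.73 without WT 5. With edgeR and DESeq2 and all libraries they were lower than with limma, 1.03 and 1.01 for Oas2 and 0.72 and 0.71 for Oas1a. Oas1a shares 57.6% of its 50-base words with Oas1g, which had 59.4, 0, 4.23 and 0 in WT and 8.86, 42.3, 38.3 and 31.2 in TG. Oasl2, a synthetase-like protein, had 264 to 482 in WT and 315 to 758 in TG (0.41 ± 0.30, SE; 0.18 without TG 5 and 0.27 without WT 5).

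Mx1 and Mx2, dynamin-like GTPases that trap viral components, each stood far higher in 1 library, WT 3 for Mx1 and TG 5 for Mx2. Mx1, which is known to be defective in most inbred laboratory strains, had 46.1 normalized reads in WT 3, 3.70 in TG 6 and 0 in the other 6 libraries. Mx2 had 35.8, 43.3, 27.5 and 31.2 in WT and 28.4, 191, 37.0 and 15.6 in TG, so TG 5 stood far above the other 7 libraries. Its log2 fold change of 0.31 ± 0.69 (SE, limma) was -0.40 without TG 5 and 0.78 without TG 8, and it was 0.98 with edgeR and with DESeq2. Rsad2 (viperin), which makes a chain-terminating nucleotide, was near the limit of detection, with 2.05, 22.1, 4.23 and 15.6 in WT and 31.0, 41.4, 9.88 and 9.76 in TG. It was the 1 tested member in which WT 3 was the lowest of the 8 libraries, and its log2 fold change of 1.18 ± 0.94 (SE) was 0.66 without WT 3.

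Ifitm3, Ifit3 and Bst2 were the most abundant members per length. Ifitm3, which blocks viral fusion, had a mean of 4937 normalized reads per kilobase of exon, Ifit3 had 3332 and Bst2 (tetherin), which holds virions at the cell surface, 1992. Their library ranges per kilobase (1807 to 9532, 1894 to 5757 and 906 to 3773) overlapped. The order is that of the means, and differences between genes within a library were not tested. Ifi27, Irf7 and Isg15 followed with 1102, 860 and 823 per kilobase, and Mx1, Rsad2 and Parp14 were lowest with 1.64, 3.92 and 8.57. Ifitm3 had 3601, 1911, 2996 and 1882 normalized reads in WT and 3485, 5215, 6463 and 1225 in TG, with TG 6 highest and TG 8 lowest of all. Bst2 had 2295, 1166, 1784 and 829 in WT and 2015, 3407, 2078 and 818 in TG. For Ifitm3 the log2 fold change was 0.47 ± 0.41 (SE), 0.17 without TG 6, 0.28 without TG 5 and 0.97 without TG 8. For Bst2 it was 0.39 ± 0.38, 0.096 without TG 5, 0.13 without WT 7, 0.62 without WT 3 and 0.78 without TG 8. Samhd1, which depletes the nucleotides that viral polymerases need, hardly varied, with 536 to 684 in WT and 570 to 726 in TG (0.03 ± 0.17, SE). Eif2ak2 (PKR), a kinase that stops translation on meeting double-stranded RNA, had 8.45 to 70.0 in WT and 40.0 to 78.9 in TG (0.38 ± 0.65, SE; -0.29 without WT 5).

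Isg15 and Usp18, a ubiquitin-like protein and the protease that removes it and also damps type I receptor signalling, had the highest log2 fold changes of the 4 modifier genes, of which 3 lay higher and 0 passed. Isg15 had 1057, 241, 298 and 373 normalized reads in WT and 667, 1007, 918 and 415 in TG. WT 3 was the highest of the 8 libraries, and the other WT libraries were all below the TG ones. TG exceeded WT by 0.79 ± 0.41 on the log2 scale (SE; 95% interval -0.09 to 1.67), and by 1.25 without WT 3. Usp18 had 249, 124, 153 and 170 in WT and 188, 461, 219 and 296 in TG, and here TG 8 was the second highest library. Its log2 fold change was 0.70 ± 0.33 (SE; 95% interval -0.0061 to 1.40) and 0.45 without TG 5, the lowest with 1 library left out. Parp14, an ADP-ribosyltransferase, and Trim25, a ubiquitin ligase that activates RIG-I, stood at 0.32 ± 0.52 and -0.15 ± 0.38 (SE), with 30.6 to 89.7 and 72.9 to 158 in WT and 31.2 to 132 and 61.5 to 130 in TG.

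Of the 2 nucleic acid sensors, 1 lay higher and 1 lower. Ifih1 (MDA5), which detects long double-stranded RNA, had 577, 377, 191 and 354 normalized reads in WT and 403, 661, 283 and 292 in TG (log2 fold change 0.14 ± 0.35, SE). Zbp1, a sensor of Z-form nucleic acid that can start necroptosis, had 162, 79.2, 28.5 and 43.9 in WT and 54.1, 104, 75.3 and 29.3 in TG (-0.09 ± 0.57, SE). Both were high in WT 3 and TG 5 and lowest in WT 5.

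The 4 remaining members all lay higher in TG, and 0 passed. Rtp4, known as a receptor chaperone and an inhibitor of viral replication, had 587, 263, 256 and 222 normalized reads in WT and 527, 948, 563 and 205 in TG (log2 fold change 0.68 ± 0.42, SE; 1.09 without TG 8, 0.99 without WT 3 and 0.36 without TG 5). Ifi27 had 2043, 965, 1159 and 1261 in WT and 1383, 2514, 2241 and 1364 in TG (0.47 ± 0.25, SE; 0.31 without TG 5). In the deposited table its span overlaps that of the related gene Ifi27l2a. Xaf1, which binds an inhibitor of apoptosis, had 378 to 723 in WT and 411 to 923 in TG (0.33 ± 0.26, SE; 0.16 without TG 5, 0.18 without WT 5 and 0.55 without TG 8). Ifi35 had 38.0 to 89.0 and 39.0 to 77.5 (0.04 ± 0.45, SE), and its span overlaps that of Vat1, which has a mean of 534 normalized reads.

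A second list held 47 interferon-stimulated genes outside the 34. Of 46 tested, 33 lay higher and 13 lower in TG, with a median log2 fold change of 0.23, and 0 passed in either direction with limma, 0 with edgeR and 0 with DESeq2, with 3, 3 and 4 at an unadjusted p under 0.05, beside 4.64%, 4.12% and 5.34% of all features. The 4 with the smallest p were Lgals9, Lgals3bp, Ly6e and Uba7. Lgals9, a secreted galectin, had 427, 204, 237 and 391 normalized reads in WT and 439.7, 676, 477 and 440.0 in TG, without overlap between the groups (0.74 ± 0.27, SE). Every TG library lay above every WT library for 3 of the 46 and below for 0, against 1.36% and 1.16% of all features. Lgals3bp, a galectin-binding glycoprotein, stood at 0.65 ± 0.26, Ly6e, a surface protein that restricts viral fusion, at 0.35 ± 0.15 and Uba7, the enzyme that activates Isg15 for conjugation, at 0.78 ± 0.37. WT 3 was the highest WT library for 24 of the 46, TG 5 the highest TG library for 20 and TG 8 the lowest TG library for 23.

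The presence of an ISRE core went along with a higher median fold change among the members with a promoter, as a description of few genes. The 16 with the core had a median log2 fold change of 0.43, with 14 higher in TG, and the 9 without it 0.04, with 7 higher. The ratio of WT 3 to the mean of the other WT libraries had a median of 1.85 with the core and 1.51 without it. For the 11 members with GAS the median log2 fold change was 0.39, with 9 higher. The median of members without GAS is not given here, so no contrast by GAS can be read.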

How the data were processed

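The authors deposited 1 table of read counts per feature divided by 1 factor per library, as its values show, a normalized signal. The submitters' processing notes list STAR 2.4.0, SAMtools, Picard, FastQC and DESeq2 and the build mm10 (GRCm38), with no roles. Per the labels' protocols, polyadenylated RNA was selected and libraries kept strand. No source used here names the counting program, how it treated strand or its gene models, so overlapping and near-identical genes carry uncertainty. For 8 members over 5% of the 50-base transcript words occur in other genes, among them Gbp7 (12.7%), Rtp4 (11.6%) and Ifitm3 (10.0%). Of the values, 100% were whole reads to within 0.01 after division by the library's value of 1 read, and the count tests used these reads (2 features called with edgeR, 16 with DESeq2). No sample column was left unmapped (0), and the lowest chi-square per feature between 2 libraries was 45.4, so none was a copy.

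The test was limma 3.58.1 (R 4.3.3) with a trended variance on log2(value + 1), over 19798 features with a mean of at least 10, with Benjamini-Hochberg adjustment over all of them and a threshold of 0.05. Errors beside fold changes are standard errors and intervals are 95%. Adding 1 before the log understates changes of low genes, though limma gave larger values than edgeR and DESeq2 for Oas1a and Oas2. Alternatives, 1 at a time, were scaling by TMM or upper quartile, adding 0.5 or 5 before the log, testing every feature or those with a mean of at least 50, a term for sex or for eye side, males only, edgeR 4.0.16 (quasi-likelihood), DESeq2 1.42.0 and leaving out each library. Leaving out WT 3 with TG 5, or with TG 6, was added after the values were seen. The fit was tested on simulated counts.

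The members and all lists were chosen with earlier results of these data known. All members, ligands, receptors, kinases and STATs are named whatever their test, apart from an item that is not reported here, and 4 genes with the smallest p from each other list. Ifit3b and Oas1g fall outside that rule and were named for shared sequence, after their values were seen. Exon lengths and transcript words come from GENCODE M21 (GRCm38), and promoters from RefSeq (GRCm38.p6).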

Additional observations from a re-analysis of the deposited data

Results flagged for a closer look

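In 66 group sets (33 members in 2 groups of 4), 1 library lay far from the other 3 in 11. The rule flags about 5% of sets of independent, normally distributed values, whereas the members moved together between libraries. The share of all features flagged is not given here, so the 11 cannot be read as an excess. WT 3 was the high library in 9 of the 11. Its values were 2401 for Ifit1 (660 to 948 in the other WT libraries), 1689 for Ifit2 (867 to 921), 10045 for Ifit3 (3305 to 3899), 353 for Oas1a (30.6 to 67.2) and 78.8 for Oas2 (4.23 to 14.7). They were 1057 for Isg15 (241 to 373), 2207 for Gbp2 (689 to 910), 475 for Iigp1 (130 to 153) and 587 for Rtp4 (222 to 263). These genes share 1 library and are not separate instances. In TG, Mx2 was high in TG 5 (191, against 15.6 to 37.0) and Eif2ak2 in TG 2 (78.9, against 40.0 to 42.0).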

How the results depend on the processing

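No paired analysis was possible because WT and TG share 1 replicate number, 5. Of the 33 tested members, 18 kept a positive log2 fold change under each of 21 alternatives (20 for Oas2 and Rsad2, which a minimum mean of 50 leaves out) and 15 changed direction under at least 1, none of them under TMM or upper-quartile scaling. None passed under any alternative. Over all features, 1 higher and 1 lower became 9 and 7 with DESeq2. The higher count was 0 with a pseudocount of 0.5, no filter, a minimum mean of 50, sex as a term, or without WT 3 and TG 5. The lower count was 3 with males only. Without 1 library they ranged from 0 to 2 (higher) and from 1 to 2 (lower). The median log2 fold change of the members ranged from 0.16 to 0.56 without 1 library, and the number higher from 20 to 32.

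Log2 fold changes that changed sign without 1 library ranged from -0.39 to 0.12 for Stat2, -0.17 to 0.29 for Irf7, -0.35 to 0.41 for Irf9, -0.21 to 0.16 for Ifit2, -0.40 to 0.78 for Mx2, -0.29 to 0.68 for Eif2ak2, -0.040 to 0.081 for Samhd1 and -0.32 to 0.066 for Trim25. They ranged from -0.023 to 0.77 for Parp14, -0.10 to 0.43 for Gbp3, -0.52 to 0.020 for Gbp7, -0.27 to 0.44 for Iigp1, -0.14 to 0.39 for Ifih1, -0.47 to 0.35 for Zbp1 and -0.13 to 0.30 for Ifi35. With sex as a term Ifit2 stood at 0.011 and Zbp1 at 0.076. With males only Stat2 stood at 0.27, Ifit2 at 0.056, Trim25 at 0.24 and Zbp1 at 0.063. Iigp1 stood at -0.078 with edgeR and -0.090 with DESeq2. Without WT 3 and TG 5 Irf9 stood at -0.29, Ifit2 at 0.015, Mx2 at -0.38, Samhd1 at -0.0072 and Zbp1 at 0.087. Without WT 3 and TG 6 Ifit2 stood at 0.21, Gbp7 at 0.050 and Zbp1 at 0.24. The cause was not tested. Mx1, Rsad2, Oas2 and Eif2ak2 had under 10 normalized reads in at least 1 library, and the interferon ligands were at or near 0, so depth limits these values.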

Other observations

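Outside the members, 410 tested genes hold the ISRE core in a RefSeq promoter. Their median log2 fold change was 0.04 and 228 of them (55.6%) were positive, against -0.02 and 47.8% of the 11438 tested genes whose promoters lack it. The ratio of WT 3 to the mean of the other WT libraries had a median of 0.962 in genes with the core and 0.953 in those without it, whereas it was 1.67 over the 33 members.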
